A study of Mus musculus with 24 samples.

Results

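Transcripts of MHC class II presentation were followed through 4 groups of bone marrow-derived macrophages (BMDMs). The genes were H2-Aa, H2-Ab1, H2-Eb1, Cd74, H2-DMa, H2-DMb1, H2-DMb2, H2-Oa, H2-Ob and the transactivator Ciita, chosen by symbol, and all 10 were found among the 55421 genes counted. The cells came from C57BL/6J wildtype (WT) mice and from mice with a germline deficiency of the aryl hydrocarbon receptor (AhR-KO, strain B6.129-Ahr tm1Bra/J), with 6 animals per group from 1 experiment, both sexes, 7 to 14 weeks old and matched for age and sex. Bone marrow was grown with 10 ng/ml GM-CSF and 2 ng/ml TGF-β1, a mixture that pushes BMDMs towards an alveolar-like state, and all groups, controls included, received 5 µM of the Ca2+ ionophore A23187 for the last 10 min. LPS, a ligand of TLR4, was given at 97 EU/ml on day 6 for 24 h or left out. The sources used here do not say whether unstimulated and stimulated cultures came from the same animals.

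Class II molecules carry peptides from endosomes to the cell surface, where CD4+ T cells read them. The α and β chains are made in the endoplasmic reticulum and bind the invariant chain, Cd74, which fills the groove and directs them to endosomes. There the invariant chain is cut down to a short remnant. H2-DM then exchanges this remnant for peptide, and H2-DO holds H2-DM back. Ciita does not bind DNA itself. It is recruited by the RFX proteins, CREB and NF-Y, which sit on an X box and a Y box in front of class II genes, and its own amount is generally held to set the output of the pathway. AhR is a ligand-activated transcription factor, and the comparison asks how the pathway is transcribed where AhR is missing.

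A stretch with the same letters at both ends was found in the promoter windows of 6 of these genes. RefSeq windows of 300 bases (250 before the start site and 50 after it, build GRCm38.p6) were at hand for 7 of the genes in 8 windows. H2-Ab1, Cd74 and Ciita were not among them, and H2-DMa was among them but did not hold the stretch. Each stretch runs from AAC, letters that X boxes can hold, to GATTGG, which holds the Y box core ATTGG (its reverse complement is CCAAT), and both ends are written in capitals. The stretches are shown because Ciita acts through X and Y boxes. They are matches of letters only, and whether any factor binds them was not measured here.
H2-Aa: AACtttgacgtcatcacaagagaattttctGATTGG
H2-Eb1: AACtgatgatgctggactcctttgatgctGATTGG
H2-DMb1: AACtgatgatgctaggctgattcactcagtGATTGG
H2-DMb2: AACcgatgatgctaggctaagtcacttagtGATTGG
H2-Oa: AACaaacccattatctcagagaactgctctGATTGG
H2-Ob: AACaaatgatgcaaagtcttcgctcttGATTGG

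These stretches lie at chr17:34287867-34287902 for H2-Aa (minus strand) and, on the plus strand, at chr17:34305778-34305812 for H2-Eb1, chr17:34153099-34153134 for H2-DMb1, chr17:34145128-34145163 for H2-DMb2, chr17:34092305-34092340 for H2-Oa and chr17:34238820-34238852 for H2-Ob. They are written in the direction of the gene, and their first base lies 74 to 121 bases before the start site. From 24 to 27 bases separated the ends. An AAC followed after 24 to 32 bases by GATTGG, searched on both strands with letters chosen after the sequences had been read, was held by 6 of the 8 windows and by 1.88% of all 32851 windows. ATTGG alone, on either strand and so including the GATTGG above, was in 7 of the 8 windows and in 37.4% of all windows. GCGTG, the core of the AhR response element, was in 0 of the 8 windows on either strand and in 32.4% of all windows. Between the neighbouring paralogs H2-DMb1 and H2-DMb2, 4 of the 36 positions of the stretch differed, T4C, G19A, T21G and C27T, with the base of H2-DMb1 named before the position, counted from the first base of the stretch, and the base of H2-DMb2 after it.

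Gene counts summed to between 45106052 and 76992663 per library, and the 10 genes together took from 0.129% to 1.51% of them. Levels are given as CPM, counts per 1000000 of a library scaled by edgeR's TMM factors (0.704 to 1.30), and as CPM per kb of merged exon where genes are compared with each other. Log2 fold changes come from edgeR's quasi-likelihood test on the 16593 genes that passed its filter on low counts, with Benjamini-Hochberg adjustment. All 10 genes were tested. Each had at least 6 libraries above the filter's limit in either genotype, over both states, and in either state, over both genotypes. A gene with fewer than 6 on 1 of these pooled sides is said to have passed through the other side alone. Within a single group fewer than 6 libraries can lie above the limit, as for Ciita in LPS-stimulated AhR-KO cells. A gene was called where the adjusted p was at most 0.05 and the change at least 2-fold. Libraries carry the numbers 17 to 40, in 3 runs of 8 consecutive numbers (17 to 24, 25 to 32 and 33 to 40) where each run holds 2 libraries of each group, and whether these runs are batches is not in the labels. Libraries also differed in how level depended on gene length, with a slope of log2 CPM on log2 length between −0.29 and 0.20. The highest slopes were in the run from 25 to 32. The targeted gene, Ahr, was lower in the unstimulated AhR-KO libraries (log2 fold change −1.93, adjusted p = 9.7e-04) but higher in the AhR-KO libraries after LPS (1.36, adjusted p = 0.011). Counts over all exons do not check the deleted piece of the gene, and the libraries are named here by their labels.

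The summed level of the 10 genes was lowest in AhR-KO cells after LPS. It ran from 5705 to 12826 CPM (median 10047.5) in unstimulated WT and from 2510.5 to 7958 CPM (median 3927) in unstimulated AhR-KO libraries. After LPS it ran from 5368 to 8502 CPM (median 6017) in WT and from 1836 to 5581 CPM (median 2115) in AhR-KO libraries. The AhR-KO range reached into the WT range in both states. In bulk RNA, fewer class II-expressing cells and less class II RNA per cell cannot be told apart.

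In unstimulated cells, AhR-KO libraries had lower transcripts of the classical chains, of H2-DMb2 and of both H2-DO chains. Of the 10 genes, 6 were called lower, against 3.57% of all tested genes, and 0 were called higher, against 0.916%. The median log2 fold change of the 10 genes was −1.35, beside −0.01 over all tested genes. After LPS, 4 of the 10 genes were called lower in AhR-KO cells, against 6.19% of all tested genes, and 0 higher, against 2.17%. The median was then −0.81, beside −0.05 over all tested genes. With LPS in WT cells 2 of the 10 genes were called lower, a share near the 11.8% of all tested genes, and 0 higher, against 13.2%. With LPS in AhR-KO cells 5 were called lower, against 15.7%, and 2 higher, a share near the 15.1% of all tested genes. The medians with LPS were −0.69 in WT and −0.85 in AhR-KO cells, beside 0.03 and −0.03 over all tested genes. For the interaction, which asks whether genotype changed the response to LPS and has no minimum fold change, 2 genes passed in the positive direction, against 1.95% of all tested genes, and 0 in the negative direction, against 2.34%. The genes called lower in LPS-stimulated AhR-KO cells, by either comparison, include Ciita, which had fewer than 6 libraries above the filter's limit in that group. The comparisons share libraries, so their counts are not independent of each other.

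**Figure D1:**
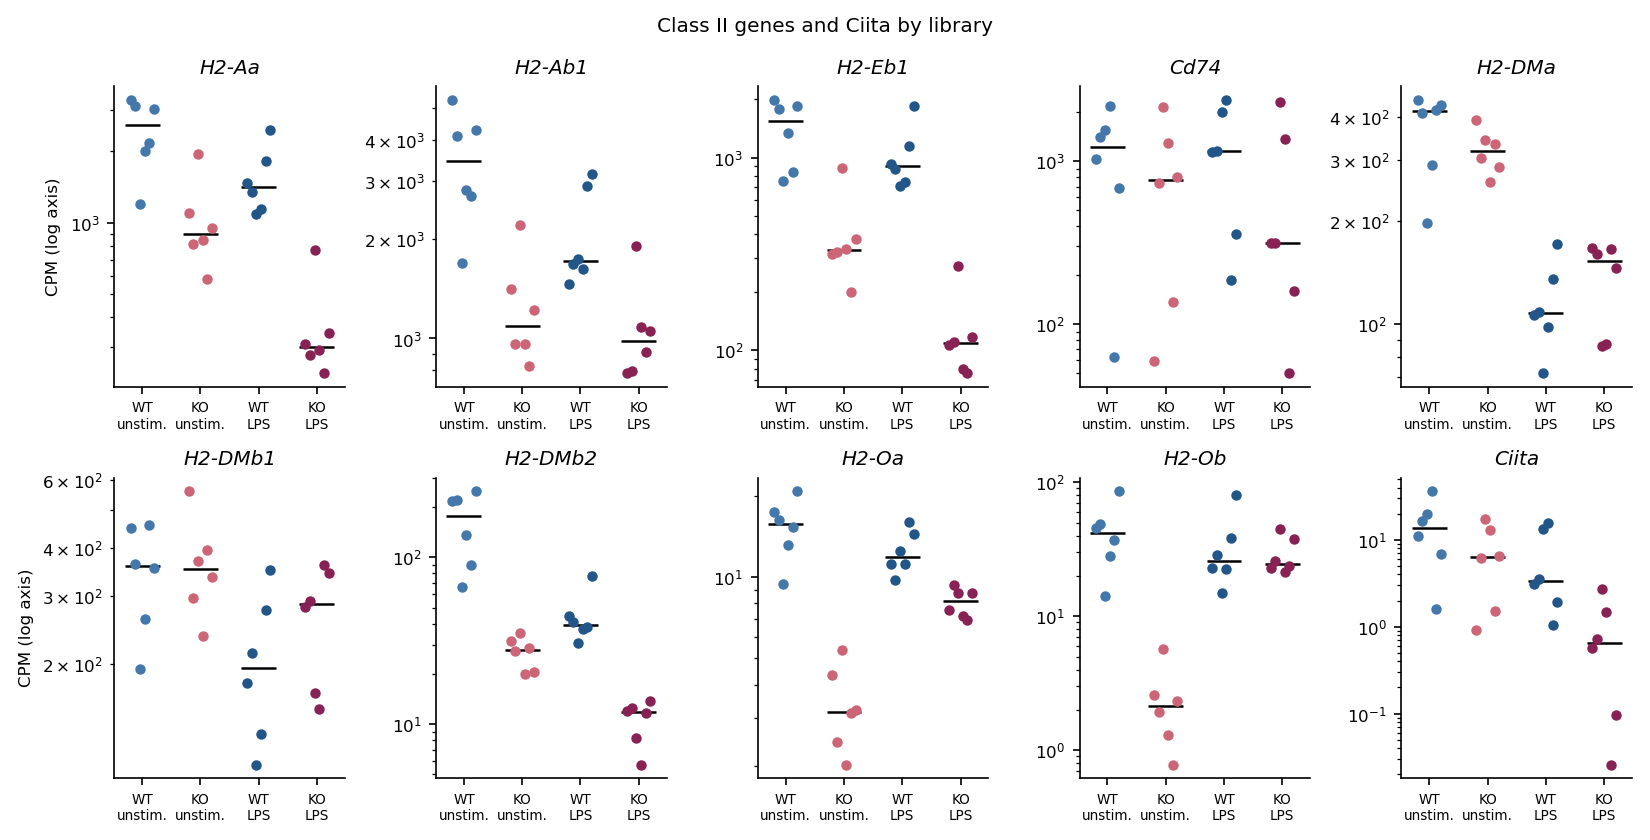
Level of each of the 10 genes in every library, in CPM on a log axis, with points for the 6 libraries of each group and a line at the median. The H2-Ob panel drops to a median of 2.14 CPM in unstimulated AhR-KO cells alone, while Ciita and Cd74 spread widely within every group.

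**Figure D2:**
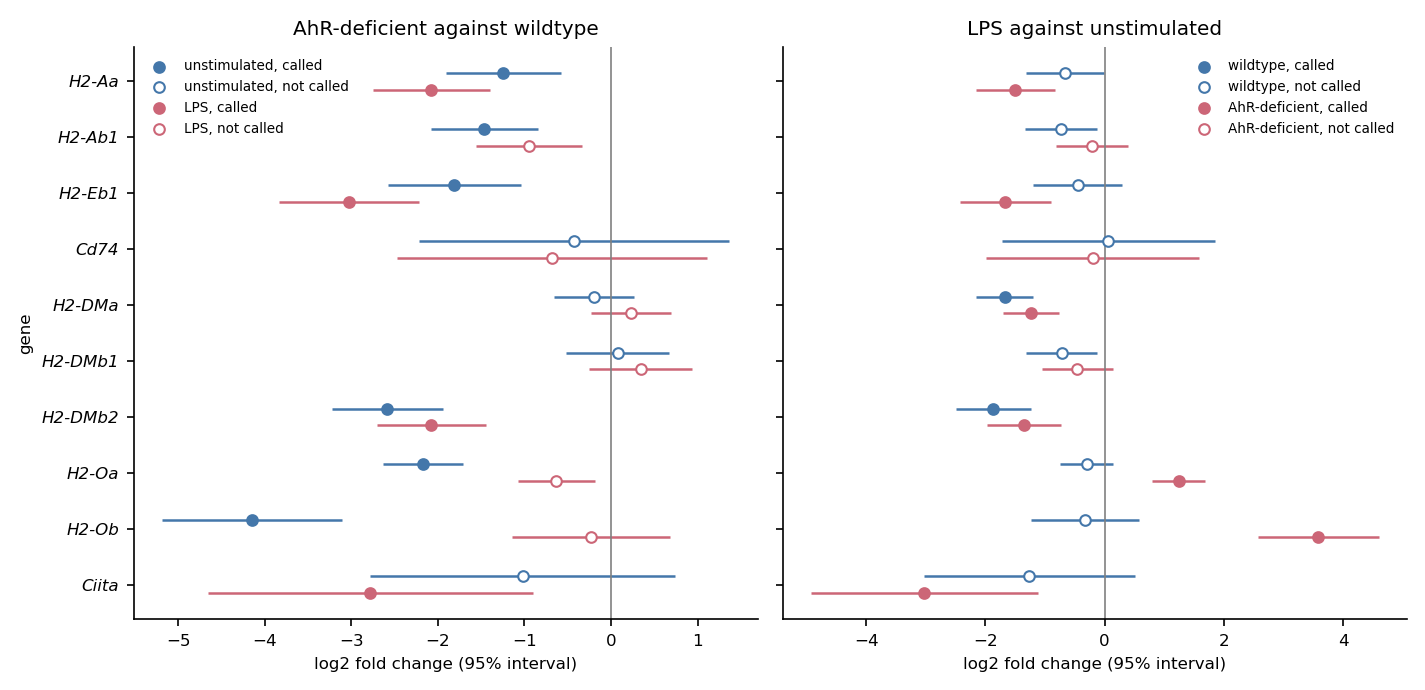
Log2 fold changes of the 10 genes by edgeR with their 95% confidence intervals, filled where the gene was called. The left panel shows AhR-KO against WT without and with LPS, and the right panel LPS against unstimulated in each genotype, where H2-Oa (1.24) and H2-Ob (3.58) were called higher in AhR-KO cells.

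H2-Aa, H2-Ab1 and H2-Eb1 encode the classical chains. H2-Aa and H2-Ab1 pair to form H2-A, and H2-Eb1 is the β chain of H2-E, which C57BL/6 mice cannot assemble because their H2-Ea is defective. H2-Ab1 (ENSMUSG00000073421, chr17:34257689-34269419 in mm10) had the highest level per kb of the 3 in every group. It ran from 1694 to 5299 CPM (median 3457) in unstimulated WT and from 827 to 2204 CPM (median 1090.5) in unstimulated AhR-KO libraries. With LPS the range was 1466 to 3154 CPM (median 1714) in WT and 785 to 1914 CPM (median 979.9) in AhR-KO libraries. The ranges of the genotypes overlapped in both states. AhR-KO cells were lower by a log2 fold change of −1.46 (SE 0.30, adjusted p = 0.0024) without stimulation. After LPS the value was −0.94 (SE 0.30, adjusted p = 0.037), short of the 2-fold limit. It was past that limit with total counts instead of TMM (−1.13, adjusted p = 0.0069) and without AhR-KO library 31 (−1.18) or WT library 21 (−1.03), 22 (−1.01) or 30 (−1.01). Other settings weakened it. With each library left out the value ran from −1.18 to −0.80, with edgeR's adjusted p up to 0.092. Over the alternatives that kept all libraries compared it ran from −1.13 to −0.90, with adjusted p up to 0.056. In the 3 runs the differences ranged from −1.999 to −0.59 in unstimulated cells and from −1.63 to −0.23 with LPS.

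H2-Aa (ENSMUSG00000036594, chr17:34282744-34287823, minus strand) was lower in AhR-KO cells in both states. Its CPM ran from 1204 to 3300.3 (median 2590.4) in unstimulated WT and from 580.3 to 1953 (median 901) in unstimulated AhR-KO libraries. After LPS the ranges were 1094 to 2449 CPM (median 1409) in WT and 233 to 765 CPM (median 299.6) in AhR-KO libraries. Without stimulation the genotypes overlapped, and after LPS every AhR-KO library lay below every WT library. The log2 fold change was −1.24 (SE 0.32, adjusted p = 0.017) without stimulation and −2.07 (SE 0.33, adjusted p = 9.2e-05) after LPS. The interaction was −0.83 (SE 0.45, adjusted p = 0.46), so that a difference between these genotype effects was not shown.

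H2-Eb1 (ENSMUSG00000060586, chr17:34305867-34316674) had the largest decrease of the 3 classical chains by point estimate in both states. It ran from 753 to 1995 CPM (median 1556) in unstimulated WT and from 201 to 878 CPM (median 329) in unstimulated AhR-KO libraries. In LPS-stimulated cells it ran from 708 to 1847 CPM (median 899) in WT and from 76.1 to 275 CPM (median 109) in AhR-KO libraries, with no overlap after LPS only. The log2 fold change was −1.81 (SE 0.37, adjusted p = 0.0024) without stimulation and −3.03 (SE 0.39, adjusted p = 7.2e-06) after LPS, and the interaction was −1.21 (SE 0.51, adjusted p = 0.25). In the 3 runs the differences after LPS lay between −3.94 and −2.29 for H2-Eb1 and between −2.90 and −1.24 for H2-Aa.

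With LPS, H2-Aa and H2-Eb1 fell in AhR-KO cells by log2 fold changes of −1.50 (SE 0.32, adjusted p = 4.9e-04) and −1.67 (SE 0.37, adjusted p = 6.8e-04), while H2-Ab1 had −0.21 (SE 0.29, adjusted p = 0.60). In WT cells none of the 3 was called: H2-Aa had −0.66 (adjusted p = 0.10), H2-Ab1 −0.73 (adjusted p = 0.054) and H2-Eb1 −0.45 (adjusted p = 0.36). Scaling by total counts instead of TMM made H2-Aa (−1.03) and H2-Ab1 (−1.11) calls in WT cells.

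The paired chains H2-Aa and H2-Ab1 were followed as a ratio within each library, which needs no scaling between libraries. Ratios were taken on counts per kb of exon, with 0.5 counts added to each gene, and compared by an exact two-sided permutation test over all ways of dealing 12 libraries into groups of 6, whose smallest possible p is 0.00216. The 20 tests, of 5 ratios in 4 comparisons, were adjusted together. H2-Aa to H2-Ab1 had a geometric mean of 0.484 (0.421 to 0.540) in unstimulated WT, 0.548 (0.475 to 0.599) in unstimulated AhR-KO and 0.505 (0.423 to 0.675) in LPS-stimulated WT cells, and of 0.221 (0.174 to 0.270) in LPS-stimulated AhR-KO cells. The last group lay below all others without overlap. With LPS the log2 ratio changed by −1.31 in AhR-KO cells (p = 0.00216, adjusted p = 0.0072, exact) and by 0.06 in WT cells (p = 0.63, adjusted p = 0.78, exact). After LPS the genotypes differed by −1.19 (p = 0.00216, adjusted p = 0.0072, exact), with values between −1.28 and −1.01 in the 3 runs. Without stimulation the difference was 0.18 (p = 0.037, adjusted p = 0.074, exact).

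Cd74 (ENSMUSG00000024610, chromosome 18), the invariant chain, varied widely within groups, and no comparison passed. Its CPM ran from 63.0 to 2195 (median 1224) in unstimulated WT, 59.2 to 2147 (median 769) in unstimulated AhR-KO, 187 to 2389 (median 1149) in LPS-stimulated WT and 50.02 to 2309 (median 316) in LPS-stimulated AhR-KO libraries. The highest library exceeded the lowest by 12.8 to 46.2 times in a group, against 2.15 to 3.13 times for H2-Ab1, and every pair of groups overlapped. The log2 fold changes in AhR-KO cells were −0.42 (95% confidence interval −2.21 to 1.37, adjusted p = 1) without stimulation and −0.68 (−2.47 to 1.11, adjusted p = 0.78) after LPS, intervals that include a 2-fold change both ways. With each library left out these values ran from −0.93 to −0.14 and from −1.46 (without AhR-KO library 31) to −0.37 (without WT library 30), and with the GC slope as a covariate the value after LPS was called (−1.10, adjusted p = 0.047). The ratio of Cd74 to the classical chains passed in no comparison (smallest p = 0.45, exact permutation test).

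H2-DM loads peptide, and its chains did not behave alike. H2-DMa (ENSMUSG00000037649, chr17:34119541-34139101), the α chain, ran from 197 to 451 CPM (median 417) in unstimulated WT and from 259 to 392 CPM (median 319.8) in unstimulated AhR-KO libraries. After LPS it ran from 71.9 to 171 CPM (median 107) in WT and from 86.4 to 167 CPM (median 153) in AhR-KO libraries. In each genotype every LPS-stimulated library lay below every unstimulated library. It fell with LPS by a log2 fold change of −1.68 (SE 0.23, adjusted p = 2.7e-06) in WT and −1.24 (SE 0.23, adjusted p = 8.2e-05) in AhR-KO cells. Between genotypes the values were −0.20 (95% confidence interval −0.66 to 0.26) without stimulation and 0.23 (−0.23 to 0.70) after LPS, neither of which passed.

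The β chain of H2-DM is encoded by a pair of neighbouring genes. H2-DMb1 (ENSMUSG00000079547, chr17:34153072-34160230) was called in none of the comparisons, with medians of 359, 353, 196 and 286 CPM in unstimulated WT, unstimulated AhR-KO, LPS-stimulated WT and LPS-stimulated AhR-KO cells and overlap between all groups compared. With total counts instead of TMM it was called lower with LPS in WT cells (−1.08, adjusted p = 9.6e-04). Its genotype values were 0.08 (95% confidence interval −0.52 to 0.67) without stimulation and 0.34 (−0.25 to 0.93) after LPS. H2-DMb2 (ENSMUSG00000037548, chr17:34143307-34151555) was lower in AhR-KO cells in both states. It ran from 66.5 to 249 CPM (median 176) in unstimulated WT and from 19.9 to 35.2 CPM (median 27.9) in unstimulated AhR-KO libraries. Following LPS it ran from 30.8 to 76.9 CPM (median 39.5) in WT and from 5.72 to 13.8 CPM (median 11.8) in AhR-KO libraries. The genotypes did not overlap in either state, with log2 fold changes of −2.58 (SE 0.31, adjusted p = 5.2e-06) without stimulation and −2.07 (SE 0.30, adjusted p = 3.7e-05) after LPS. With LPS it fell by −1.87 (SE 0.30, adjusted p = 2.4e-05) in WT and −1.35 (SE 0.30, adjusted p = 6.1e-04) in AhR-KO cells.

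As a description, H2-DMb1 per kb exceeded H2-DMb2 per kb by 1.48 to 5.31 times (median 2.08) in unstimulated WT and by 10.9 to 18.5 times (median 13.4) in unstimulated AhR-KO libraries. After LPS the excess was 3.68 to 7.53 times (median 4.45) in WT and 21.3 to 32.4 times (median 25.1) in AhR-KO libraries. These are the genes whose promoter stretches differ at 4 of 36 positions. Of the stretches of 100 bases in their transcripts, 13.7% in H2-DMb1 and 10.3% in H2-DMb2 are shared. A read there could not be placed uniquely without its mate, so that the level of each may be understated.

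H2-DO, which restrains H2-DM and is known mainly from B cells and some dendritic cells, held the 2 genes of the 10 that passed the interaction test. H2-Ob (ENSMUSG00000041538, chr17:34238903-34254414), its β chain, ran from 14.2 to 85.7 CPM (median 41.6) in unstimulated WT and from 0.781 to 5.65 CPM (median 2.14) in unstimulated AhR-KO libraries. After LPS it ran from 14.9 to 79.6 CPM (median 25.8) in WT and from 21.4 to 44.6 CPM (median 24.6) in AhR-KO libraries. Unstimulated AhR-KO libraries lay below all others, and the other 3 groups overlapped. AhR-KO cells were lower by a log2 fold change of −4.15 (SE 0.50, adjusted p = 6.1e-06) without stimulation, but after LPS the value was −0.23 (95% confidence interval −1.14 to 0.68, adjusted p = 0.88), and 0.20 without WT library 38. H2-Ob rose with LPS by 3.58 (SE 0.49, adjusted p = 1.8e-06) in AhR-KO cells and had −0.33 (SE 0.44, adjusted p = 0.61) in WT cells. The interaction was 3.92 (SE 0.65, adjusted p = 7.4e-04).

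H2-Oa (ENSMUSG00000024334, chr17:34092340-34095234), the α chain of H2-DO, was also lower in unstimulated AhR-KO cells and rose with LPS in AhR-KO cells. It ran from 9.43 to 20.9 CPM (median 15.8) in unstimulated WT and from 2.02 to 5.39 CPM (median 3.18) in unstimulated AhR-KO libraries. LPS-stimulated libraries ran from 9.76 to 16.1 CPM (median 11.9) in WT and from 6.94 to 9.40 CPM (median 8.15) in AhR-KO libraries. The genotypes did not overlap in either state. The log2 fold change was −2.17 (SE 0.22, adjusted p = 6.5e-07) without stimulation and −0.63 (SE 0.21, adjusted p = 0.057) after LPS. With LPS it rose by 1.24 (SE 0.22, adjusted p = 5.1e-05) in AhR-KO cells and had −0.30 (SE 0.21, adjusted p = 0.30) in WT cells, and the interaction was 1.54 (SE 0.30, adjusted p = 0.0034). When total counts replaced the TMM scaling, the rise in AhR-KO cells was 0.78 (adjusted p = 0.0027), short of 2-fold. In the 3 runs the rise with LPS in AhR-KO cells lay between 1.13 and 1.24 for H2-Oa and between 3.17 and 3.99 for H2-Ob.

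At the level of RNA, the balance of loader and restrainer moved accordingly, and protein was not measured here. The ratio of H2-DM (sum of its 3 genes per kb) to H2-DO (sum of both genes per kb) had a geometric mean of 21.8 (15.6 to 24.99) in unstimulated WT and 117 (69.6 to 147) in unstimulated AhR-KO cells. After LPS it was 11.8 (8.89 to 14.9) in WT and 17.6 (8.94 to 28.9) in AhR-KO cells. Unstimulated AhR-KO libraries lay above all others. In log2 units the genotypes differed by 2.43 without stimulation (p = 0.00216, adjusted p = 0.0072, exact permutation test) and by 0.58 after LPS (p = 0.065, adjusted p = 0.12, exact). Without AhR-KO library 31 the latter was 0.77 (p = 0.0065, exact), and without AhR-KO library 32 it was 0.66 (p = 0.048, exact). With LPS the log2 ratio changed by −0.88 in WT and by −2.73 in AhR-KO cells (both p = 0.00216, adjusted p = 0.0072, exact).

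The ratio of H2-DM to the classical chains was higher in AhR-KO cells in both states. Its geometric mean was 0.151 in unstimulated WT, 0.350 in unstimulated AhR-KO, 0.103 in LPS-stimulated WT and 0.350 in LPS-stimulated AhR-KO cells. The genotypes differed by 1.21 without stimulation and by 1.77 after LPS in log2 units (both p = 0.0043, adjusted p = 0.011, exact permutation test), with values between 0.69 and 1.61 and between 0.90 and 2.31 in the 3 runs. With LPS the ratio changed by −0.56 in WT cells (p = 0.00216, adjusted p = 0.0072, exact), and by 0.00 in AhR-KO cells (p = 0.99, exact).

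**Figure D3:**
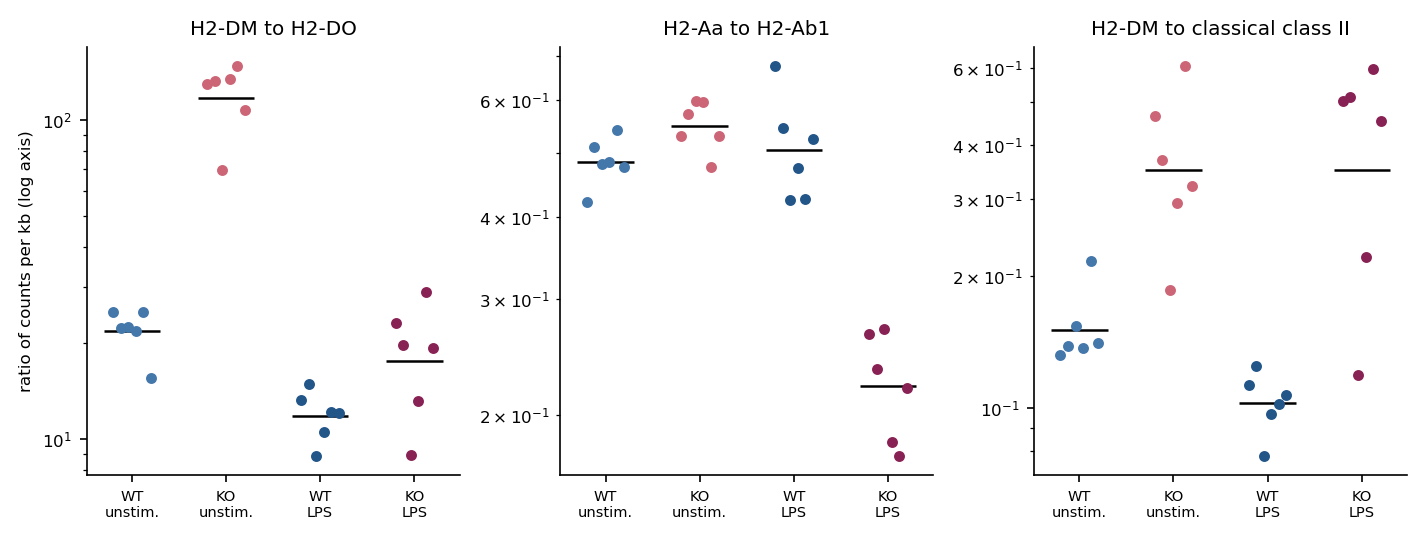
Ratios of H2-DM to H2-DO, H2-Aa to H2-Ab1 and H2-DM to the classical chains in every library, from counts per kb of exon on a log axis, with points for the 6 libraries of each group and a line at the geometric mean. H2-DM to H2-DO stands at 117 in unstimulated AhR-KO cells against 11.8 to 21.8 elsewhere, and H2-Aa to H2-Ab1 at 0.221 in LPS-stimulated AhR-KO cells against 0.484 to 0.548 elsewhere.

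Ciita (ENSMUSG00000022504, chr16:10480059-10528418), the transactivator, was the least abundant of the 10 genes per kb in 3 groups and ranked last but for H2-Ob in unstimulated AhR-KO cells. It ran from 1.61 to 36.4 CPM (median 13.8) in unstimulated WT and from 0.929 to 17.5 CPM (median 6.38) in unstimulated AhR-KO libraries. After LPS it ran from 1.06 to 15.6 CPM (median 3.33) in WT and from 0.0258 to 2.69 CPM (median 0.646) in AhR-KO libraries, where single libraries held between 1 and 137 counts. Of these, libraries 39 (1 count) and 40 (5 counts) lay below the filter's limit. Every pair of groups overlapped. The log2 fold change in AhR-KO cells was −1.02 (95% confidence interval −2.78 to 0.74, adjusted p = 0.83) without stimulation and −2.78 (−4.66 to −0.90, adjusted p = 0.046) after LPS. With LPS it was −1.26 (−3.03 to 0.50, adjusted p = 0.27) in WT, called with run as a factor (−1.53, adjusted p = 0.013), and −3.02 (−4.92 to −1.12, adjusted p = 0.0093) in AhR-KO cells. The interaction was −1.76 (SE 1.21, adjusted p = 0.67). The ratio of the classical chains to Ciita passed in no comparison after adjustment, and was closest with LPS in AhR-KO cells (log2 difference 2.76, p = 0.026, adjusted p = 0.058, exact permutation test).

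The call of Ciita between genotypes after LPS depended on the fit, with adjusted p from 7.8e-07 to 0.10 over the alternatives that kept all libraries compared and log2 fold changes between −3.26 and −2.52. It was lost with limma-voom (−3.26, adjusted p = 0.10), without the filter (−2.78, adjusted p = 0.075) and with only the 12 libraries compared (−2.76, adjusted p = 0.089). The lowest adjusted p came with the length and GC slopes as covariates (−2.63). It was above the threshold without any 1 of the libraries 17, 18, 20, 21, 22, 23, 24, 25, 28, 29, 30, 32, 34, 36, 39 and 40, at most 0.12, with log2 fold changes between −2.98 and −2.29. In the 3 runs the difference lay between −2.57 and −1.74. With the slope on gene length as a covariate Ciita was lower in AhR-KO cells without stimulation as well (−1.25, adjusted p = 0.0037), lower with LPS in WT cells (−1.82, adjusted p = 1.3e-05), and its interaction was −1.27 (adjusted p = 0.048).

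Per kb, the order of mean levels in unstimulated WT cells was H2-Ab1 (1356 ± 509 CPM per kb, SD, n = 6), H2-Eb1 (732 ± 275), Cd74 (689 ± 440.2), H2-Aa (649 ± 213), H2-DMb1 (206 ± 61.6), H2-DMa (107 ± 29.4), H2-DMb2 (93.3 ± 43.7), H2-Oa (10.96 ± 2.76), H2-Ob (8.05 ± 4.52) and Ciita (1.62 ± 1.28). Between neighbours in that order, the intervals of mean ± SD overlapped from H2-Ab1 through H2-Aa, for H2-DMa with H2-DMb2 and for H2-Oa with H2-Ob, and at the other steps they did not. In LPS-stimulated AhR-KO cells the order was Cd74 (449 ± 534 CPM per kb), H2-Ab1 (424 ± 164), H2-DMb1 (158 ± 52.2), H2-Aa (97.3 ± 51.9), H2-Eb1 (65.7 ± 38.2), H2-DMa (39.2 ± 11.1), H2-DMb2 (6.08 ± 1.73), H2-Oa (5.75 ± 0.711), H2-Ob (5.44 ± 1.77) and Ciita (0.0977 ± 0.106). Cd74 was above H2-Ab1 in libraries 31 and 32 and below it in the other 4, and the means were 263 for Cd74 and 360.1 for H2-Ab1 without library 31, and 375 and 425 without library 32. H2-DMb1 was above H2-Aa and H2-Eb1 in 5 of these 6 libraries and below both in library 31, and the intervals of mean ± SD of H2-DMb1 and H2-Aa overlapped. Merged exon lengths include exons a cell may not use, and levels per kb are then understated.

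Within groups, several pairs of the genes varied together. As a description over the 24 libraries, with each group's mean of log2(CPM + 0.5) removed, Pearson's r was 0.93 for H2-Aa with H2-Ab1, 0.95 for H2-Aa with H2-Eb1 and 0.86 for H2-Ab1 with H2-Eb1. It was 0.94 for Cd74 with Ciita and 0.93 for H2-DMa with H2-DMb1. With H2-Ob it was 0.88 for H2-Aa, 0.85 for H2-Ab1 and 0.84 for H2-Eb1. Other pairs had lower values, such as 0.79 for H2-DMa with H2-DMb2, 0.76 for H2-Ab1 with H2-Oa, 0.68 for H2-DMb2 with H2-Ob, 0.58 for H2-DMa with H2-Ob and 0.56 for H2-Eb1 with H2-DMb2. These points share libraries and their scaling.

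With group means alone removed, no relation of Ciita with the classical chains passed, although alternatives given below changed this for H2-Ab1 and H2-Eb1. The r of Ciita was 0.06 with H2-Aa, 0.02 with H2-Ab1 and 0.24 with H2-Eb1 (adjusted p = 0.90, 0.95 and 0.46, 100000 permutations within groups, 9 tests). These low values pool relations of opposite sign: with H2-Aa r was −0.23 in unstimulated WT, 0.49 in unstimulated AhR-KO, −0.84 in LPS-stimulated WT and 0.71 in LPS-stimulated AhR-KO libraries, not tested for each group. With the means of group and run removed, r was −0.96, 0.89 and 0.86 with H2-Aa and −0.87, 0.86 and 0.98 with H2-Ab1 in the runs of libraries 17 to 24, 25 to 32 and 33 to 40. With Cd74 it was 0.94 and Spearman's rho 0.95 (both p = 1e-05, the smallest these permutations can give, adjusted p = 9.0e-05). With H2-DMb1 r was −0.79 and rho −0.83 (p = 4e-05 and 2e-05, adjusted p = 1.8e-04 and 9.0e-05), and with H2-DMa r was −0.65 and rho −0.68 (p = 8.9e-04 and 4.1e-04, adjusted p = 0.0027 and 0.0012). Leaving out libraries 33 and 19, the farthest from the median of Ciita, gave 0.91, −0.77 and −0.65 in the same order. In each of the 4 groups r with Cd74 lay between 0.92 and 0.99.

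Some of these genes also followed the slope of each library on gene length. The deviation of that slope from its group mean had r = 0.95 with Cd74 and 0.95 with Ciita (rho 0.92 and 0.95), and r = −0.90 with H2-DMb1 and −0.76 with H2-DMa (rho −0.93 and −0.82), whereas r with the 3 classical chains lay between −0.18 and 0.06. For Cd74, Ciita and H2-DMb1 p was 1e-05 and for H2-DMa 2e-05 by permutation within groups, which leaves the runs in. With the means of run and group removed, r was 0.94 with Cd74 (exact p = 0.045), 0.88 with Ciita (exact p = 0.049), −0.74 with H2-DMb1 (exact p = 0.026) and −0.38 with H2-DMa (exact p = 0.15). After adjustment over the 10 genes 0 of these passed (smallest adjusted p = 0.16, exact permutation test). Without libraries 33 and 19 the values for Ciita and Cd74 were both 0.93. With the part of each gene that is linear in the length slope removed, r of Ciita was 0.43 with Cd74 (adjusted p = 0.081), 0.43 with H2-DMb1, 0.33 with H2-DMa, 0.58 with H2-Ab1 and 0.56 with H2-Eb1 (adjusted p = 0.043 for the last pair, permutation).

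Within the runs the picture differed by gene. Between Ciita and Cd74 r was 0.99, 0.92 and 0.95 in the runs from 17, 25 and 33, and 0.95 with the means of run and group removed (exact p = 4.9e-04). Between the length slope and Ciita it was 0.98, −0.36 and 0.93, and between the length slope and Cd74 0.99, −0.65 and 0.99. The paired libraries of a group differed in slope by 0.016 to 0.34, 0.0049 to 0.036 and 0.022 to 0.23 in these runs, with the widest difference between libraries 19 and 20. Each r within a run thus rests on 4 pairs and mainly on those that differ most. With the means of run and group removed, r of Ciita was −0.43 with H2-DMb1 (exact p = 0.42), −0.08 with H2-DMa (exact p = 0.82) and 0.61 with H2-Eb1 (exact p = 0.0088). The value with H2-Eb1 passed after adjustment (adjusted p = 0.040, exact permutation test). The groups had similar slopes, with medians of −0.02, 0.05, 0.05 and 0.00 in unstimulated WT, unstimulated AhR-KO, LPS-stimulated WT and LPS-stimulated AhR-KO libraries. The part of the slope in the levels of Cd74, Ciita, H2-DMa and H2-DMb1 was not tested beyond these values.

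**Figure D4:**
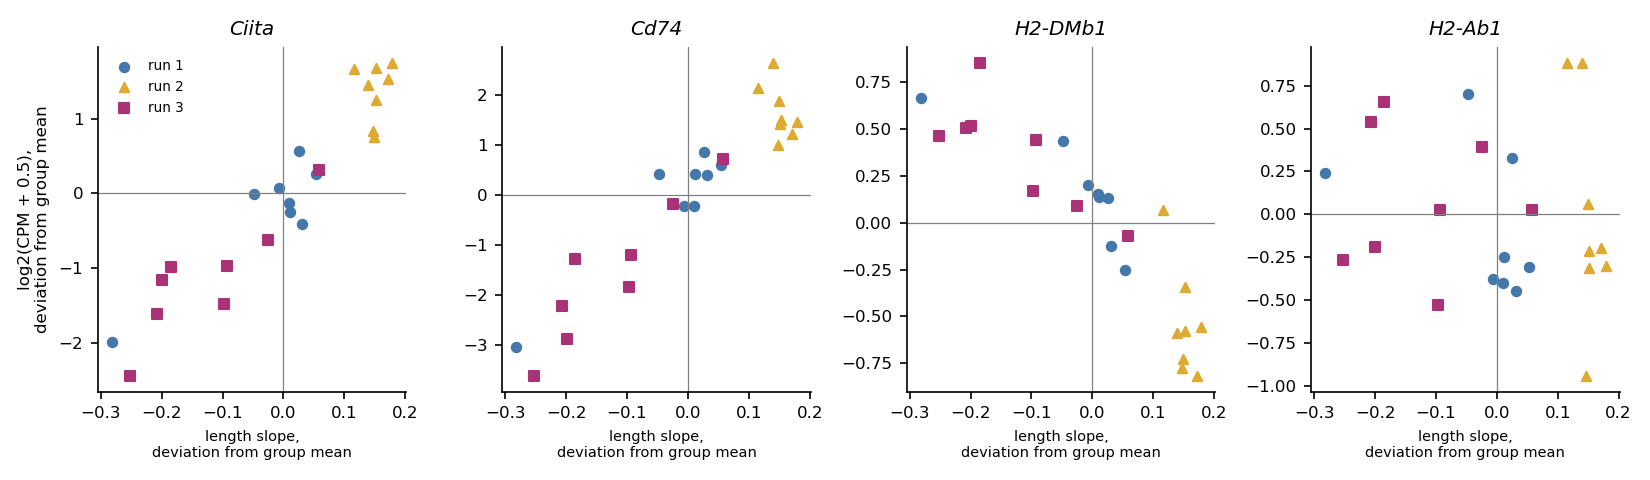
Deviation of log2(CPM + 0.5) from the group mean for Ciita, Cd74, H2-DMb1 and H2-Ab1 against the deviation of each library's slope on gene length, with points for the 24 libraries marked by run of library numbers. Ciita and Cd74 rise along the axis (r = 0.95 for both), H2-DMb1 falls (r = −0.90), and H2-Ab1 does not follow it (r = −0.18).

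Of the 7 genes of the RFX, NF-Y and CREB complex, which brings Ciita to class II promoters, all tested, 0 were called between genotypes in either state, where 3.57% of all tested genes were lower and 0.916% higher without stimulation and 6.19% and 2.17% after LPS, and Rfx5 alone was called with LPS in WT cells (log2 fold change 1.11, adjusted p = 0.0067), a share near the 13.2% of all tested genes called higher there. Rfx5 had 0.97 (adjusted p = 0.014) with LPS in AhR-KO cells. The median of the list was between −0.10 and 0.26 in the 5 comparisons.

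Genes upstream of Ciita responded to LPS in both genotypes. Among the 13 genes listed as controlling Ciita, through interferon-γ signalling, interferon regulatory factors and repressors, 8 rose with LPS in WT cells and 7 in AhR-KO cells, against 13.2% and 15.1% of all tested genes, and Ifngr1, a receptor chain for interferon-γ, fell in AhR-KO cells (−1.11) and, short of the 2-fold limit, in WT cells (−0.66, adjusted p = 2.8e-04), with an interaction of −0.45 (adjusted p = 0.24). Ifngr2, the partner chain, rose by 1.67 in WT and 2.00 in AhR-KO cells, and Irf1, an activator of Ciita, by 1.96 and 2.08. Between genotypes, Socs1, an inhibitor of cytokine signalling, was lower in unstimulated AhR-KO cells (−1.63, SE 0.19, adjusted p = 3.2e-06) and had −0.01 after LPS. Irf8, a factor of macrophage and dendritic cell development, was lower in AhR-KO cells after LPS (−3.79, SE 0.38, adjusted p = 3.1e-07), where Irf4 was higher (1.03, SE 0.30, adjusted p = 0.025). Irf8 ran from 474 to 1303 CPM (median 1098) in WT and from 32.4 to 183 CPM (median 49.2) in AhR-KO libraries after LPS, without overlap. The interaction was −2.97 for Irf8 (adjusted p = 7.8e-04) and 1.63 for Socs1 (adjusted p = 5.9e-04).

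Of 8 enzymes that process antigen and invariant chain, 1 was called higher and 0 lower in unstimulated AhR-KO cells, against 0.916% and 3.57% of all tested genes, and the median log2 fold change of the 8 was 0.63, against −0.01 over all tested genes. Lgmn, the asparagine-specific endopeptidase, was higher (1.08, adjusted p = 6.9e-05). Below the 2-fold limit were the cathepsins Ctsb (0.65, adjusted p = 2.7e-04) and Ctsh (0.61, adjusted p = 0.0062), the thiol reductase Ifi30 (0.78, adjusted p = 0.0023) and Ctss (0.87, adjusted p = 0.056), the main protease of invariant chain. After LPS 0 of the 8 were called between genotypes, against 2.17% higher and 6.19% lower over all tested genes. With LPS, Sppl2a, which cleaves the last membrane remnant of Cd74, rose by 1.29 in WT and 1.79 in AhR-KO cells, and Lgmn fell in AhR-KO cells (−1.62). The interaction passed for Lgmn (−1.24, adjusted p = 0.0015) and Ctsh, a cathepsin (−0.76, adjusted p = 0.027).

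Among the 6 genes of class II turnover, Cd83, which shields surface class II from degradation, was lower in AhR-KO cells both without stimulation (−3.13, SE 0.44, adjusted p = 4.3e-05) and after LPS (−1.25, SE 0.41, adjusted p = 0.048). Marchf1, the ubiquitin ligase that removes class II from the surface, rose with LPS by 1.47 in WT and 2.17 in AhR-KO cells, and Cd83 rose by 4.34 and 6.22. Il10 passed the filter through LPS-stimulated libraries alone. With LPS 3 of the other 5 rose in WT and 4 in AhR-KO cells, against 13.2% and 15.1% of all tested genes. Il10, an inducer of Marchf1, had 0 counts in all 12 unstimulated libraries, which allows up to 0.0681 CPM in a library (counting error only), and from 1.05 to 4.36 CPM in the LPS-stimulated libraries.

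Of the other class II genes of the locus, H2-Eb2, a paralog of H2-Eb1, passed the filter through WT libraries alone, and its levels are a description with no test. Its mean was 0.758 ± 1.01 CPM (SD, n = 6) in unstimulated WT, 0.0225 ± 0.0358 in unstimulated AhR-KO, 4.98 ± 5.31 in LPS-stimulated WT and 0.114 ± 0.0800 in LPS-stimulated AhR-KO cells. H2-Ea did not pass the filter.

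The cultures carried macrophage transcripts throughout, and markers of other class II-bearing cells differed between groups. Of the 6 macrophage markers all were detected, with a summed level between 11946 and 33658 CPM, and Fcgr1 was the 1 called between genotypes, higher in AhR-KO cells after LPS, against 2.17% of all tested genes. The 8 alveolar macrophage markers summed to between 3345 and 10209 CPM. In AhR-KO cells Siglecf and Ear2 were higher without stimulation, against 0.916% of all tested genes. After LPS Car4 and Ear2 were higher and Fabp5 lower, against 2.17% and 6.19%. With LPS 5 of the 8 fell in each genotype, against 11.8% of all tested genes in WT and 15.7% in AhR-KO cells, and Car4 rose, against 13.2% and 15.1%. The 7 B cell markers summed to at most 0.347 CPM in any library and the 5 T cell markers to at most 0.704 CPM, and none passed the filter. Cr2 had no count in any library and Pax5 none in 3 of the groups. Of the Langerhans cell markers, Epcam was lower in AhR-KO cells without stimulation, against 3.57% of all tested genes. After LPS fewer than 6 AhR-KO libraries held Epcam above the filter's limit. It is given there by its mean only, 11.5 CPM in WT and 0.0852 CPM in AhR-KO cells. Cd207 passed the filter through WT libraries alone and is given by its level only. Their sum ran from 56.8 to 154 CPM in unstimulated WT, 0.781 to 3.48 in unstimulated AhR-KO, 6.96 to 26.04 in LPS-stimulated WT and 0 to 0.315 in LPS-stimulated AhR-KO libraries. Their part in the class II levels was not tested.

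Of the 10 dendritic cell markers, 9 were tested. Flt3 and Cd209a passed the filter through WT libraries alone and are left out of the calls. Of the other 7, Ccr7 was lower and Clec9a and Batf3 higher in unstimulated AhR-KO cells, against 3.57% and 0.916% of all tested genes. Zbtb46 and Ccr7 were lower after LPS, against 6.19%. Dpp4 had fewer than 6 AhR-KO libraries above the filter's limit in each state and is given by its means only. These were 10.4 CPM in WT and 0.230 CPM in AhR-KO cells without stimulation, and 8.56 and 0.307 CPM after LPS. The sum of the 10 markers ran from 244 to 809.5 CPM in unstimulated WT, 577 to 1708 in unstimulated AhR-KO, 1151 to 2842 in LPS-stimulated WT and 854 to 3114 in LPS-stimulated AhR-KO libraries, with Itgax or Ccr7 as the most abundant. Of the 6 neutrophil markers, 4 passed the filter through both genotypes, with 4 lower in unstimulated AhR-KO cells and 2 after LPS, against 3.57% and 6.19% of all tested genes. Among these 4, Ly6g had fewer than 6 AhR-KO libraries above the filter's limit in each state. The sum of the 6 markers ran from 291 to 1415 CPM in unstimulated WT, 43.1 to 87.9 in unstimulated AhR-KO, 114 to 807 in LPS-stimulated WT and 23.2 to 80.1 in LPS-stimulated AhR-KO libraries. Of the 5 mast cell markers, which summed to at most 37.6 CPM, 3 passed the filter through both genotypes, with Kit and Cpa3 lower in unstimulated AhR-KO cells and Kit, Cpa3 and Ms4a2 lower after LPS, against the same 3.57% and 6.19%. Fewer than 6 AhR-KO libraries held Kit above the filter's limit without stimulation, and Ms4a2 in each state. The 3 plasmacytoid dendritic cell markers summed to at most 55.4 CPM, and Ccr9 was higher in AhR-KO cells after LPS, against 2.17% of all tested genes. The part of these markers in the results was not tested.

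The genes outside the 10 whose log2(CPM + 0.5) was most like that of Ciita over the 24 libraries were Rgs3 (Pearson's r 0.96), Mvb12b (0.95), Plxnc1 (0.94), Mtus1 (0.94) and Camk1d (0.94). For Cd74 the value with Ciita was 0.79, and for H2-Ab1 it was 0.46. The genes most like H2-Ab1 were Lpar6 (0.89), Adgrg5 (0.88), Ltb (0.87), Sult1a1 (0.87) and Epcam (0.86), beside 0.89 for H2-Aa and 0.88 for H2-Eb1. These values mix differences between groups with those within them.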

How the data were processed

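RNA was sequenced from 24 libraries in 4 groups of 6. The authors aligned read pairs to mm10 with GSNAP and deposited gene counts, made with featureCounts 2.0.1 from uniquely aligned fragments on Ensembl 98 genes, reverse-stranded, with fragments on several genes left out. The deposited counts are not normalized. bcl2fastq 2.20.0 is named in the processing notes.

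All 24 libraries entered 1 model in edgeR 4.0.16 (R 4.3.3; limma 3.58.1) with a coefficient per group, TMM factors, filterByExpr and the robust quasi-likelihood F-test. On simulated counts it recovered 54% (interaction) to 75.5% (genotype after LPS) of 200 genes shifted by 2 on the log2 scale. The biological coefficient of variation was 49.1%. Ratios, correlations and plots used Python 3.11.15 with scipy 1.17.1, numpy 2.4.6, matplotlib 3.10.9 and pandas 2.3.3. Intervals and limits for 0 counts (3 counts) cover counting or model error only.

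The 10 genes, the lists and the tests were chosen with earlier results of these data known. Named are the 10 genes, from each list at most 4 genes called in a comparison described, Ahr, and the 5 genes most like Ciita and H2-Ab1. Some list genes beyond this rule (among them Rfx5, Irf4, Il10, Ctsb, Ifi30, Ctss and the markers) were named after their values were seen. Alternatives were total library size, DESeq2 1.42.0 and its size factors, limma-voom, other filters, no minimum fold change, only the libraries compared, run or slopes as covariates, and each library left out in turn. The slope on GC, both slopes together and the removal of run means were chosen after seeing the data. The reported values keep all libraries.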

Additional observations from a re-analysis of the deposited data

Results flagged for a closer look

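In groups of 6 libraries, 7 values of the 10 genes lay far from the rest of their group by Dixon's criterion, among 40 groups tested, where chance gives about 1 in 20. AhR-KO library 31 after LPS was the highest of its group for the 3 classical chains, with 765 CPM of H2-Aa, 1914 CPM of H2-Ab1 and 275 CPM of H2-Eb1. Unstimulated AhR-KO library 27 was the highest for H2-Eb1 (878 CPM) and H2-Ob (5.65 CPM). WT library 38 after LPS was the highest for H2-DMb2 (76.9 CPM) and H2-Ob (79.6 CPM).

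The response to LPS differed between genotypes for H2-Oa (interaction log2 fold change 1.54, adjusted p = 0.0034) and H2-Ob (3.92, adjusted p = 7.4e-04) by edgeR's quasi-likelihood test with Benjamini-Hochberg adjustment. In AhR-KO cells all LPS-stimulated libraries lay above all unstimulated ones for both genes.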

How the results depend on the processing

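The calls of H2-Eb1, H2-DMb2, H2-Ob, H2-DMa and H2-Aa between genotypes and with LPS in AhR-KO cells kept their side of the threshold under every alternative run, those of H2-Ob and H2-Oa for the interaction too. No paired analysis was possible because the groups share no replicate numbers. A fit with run as a factor was made, which is no pairing of animals, and it added Ciita to the calls with LPS in WT cells (−1.53, adjusted p = 0.013). Between genotypes after LPS, from 3 to 5 genes were called under the alternatives, in place of 4. With total library size, 5 genes were called with LPS in WT cells in place of 2. Low counts limit the values of Ciita, which had 1 count in 1 library.

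Signs of fold changes turned only for values that were not called. Cd74 between genotypes after LPS was called with the GC slope as a covariate (−1.10, adjusted p = 0.047). H2-DMb1 between genotypes without stimulation was −0.0078 with total library size and ran from −0.083 to 0.18 with each library left out. The same range was −0.40 to 0.20 for H2-Ob between genotypes after LPS, −0.44 to 0.018 for H2-Ab1 with LPS in AhR-KO cells, and for Cd74 −0.25 to 0.34 with LPS in WT cells, −0.97 to 0.31 with LPS in AhR-KO cells and −1.04 to 0.25 for the interaction. Cd74 with LPS in WT cells was −0.29 with total library size, −0.015 at a mean of at least 1 CPM, −0.34 with the length slope, −0.26 with both slopes, −0.11 with run as a factor and −0.0017 with only the 12 libraries compared. With LPS in AhR-KO cells it was 0.086 with the GC slope.

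With each library left out, the log2 ratio of H2-DM to H2-DO between genotypes after LPS ran from 0.44 to 0.77, and that of H2-Aa to H2-Ab1 from 0.14 to 0.22 between genotypes without stimulation and −0.024 to 0.11 with LPS in WT cells. Cd74 to the classical chains ran from −0.15 to 0.89 between genotypes after LPS and −0.32 to 0.83 with LPS in AhR-KO cells. H2-DM to the classical chains ran from −0.18 to 0.31 with LPS in AhR-KO cells. The classical chains to Ciita ran from −0.87 to 0.11 between genotypes without stimulation and 2.12 to 3.27 with LPS in AhR-KO cells.

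Correlations of Ciita also moved. With the length slope removed they were 0.58 for H2-Ab1, 0.56 for H2-Eb1, 0.43 for Cd74, 0.33 for H2-DMa, 0.43 for H2-DMb1, 0.38 for H2-DMb2, 0.41 for H2-Oa and 0.46 for H2-Ob. With total library size they were −0.42 for H2-DMa and 0.032 for H2-Oa. With the means of run and group removed they were 0.61 for H2-Eb1, −0.077 for H2-DMa, −0.43 for H2-DMb1, 0.42 for H2-DMb2, 0.040 for H2-Oa and 0.58 for H2-Ob. The cause of these changes was not tested.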
